A study of Homo sapiens with 3 samples.

Results

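Cholesterol is built from acetyl-CoA in the endoplasmic reticulum and cytosol, and 26 genes of this route and of its control system were followed by ribosome profiling (Ribo-seq) in cells expressing wild-type (WT) or mutant p53. They were chosen by name, with earlier results of these data known. These are the synthesis enzymes, the sterol regulatory element binding protein (SREBP) control genes and the sterol transporter STARD4, taken as count table rows. All 26 were found among the 63241 genes of the table, and all 26 passed the filter on low counts that left 19820 genes for testing. Ribo-seq sequences the mRNA fragments shielded by ribosomes, so a gene's count reflects how much of its mRNA is present and how densely ribosomes sit on it. These contributions cannot be told apart here. The study also made RNA-seq of stable cells expressing WT or mutant p53 and lists cholesterol homeostasis among its top functional terms. That RNA-seq was not used here. The cells were HEK293T, derived from human embryonic kidney and expressing SV40 large T antigen, which binds and inhibits p53, and the study's methods describe a lentiviral construct selected with puromycin.

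The 3 groups expressed WT p53, G245S p53 or R273H p53; both substitutions alter the domain with which p53 binds DNA and recur in tumors. All groups were monolayers in 10 cm dishes that received cycloheximide, which stalls elongating ribosomes, for 2 min. The wash and lysis buffers also held the drug, at 100 ug/mL. In every group the footprints came from a 30 min treatment of the lysate with micrococcal nuclease, dosed as 3 U to each ug of RNA. The labels call the cells stable in one field and transiently expressing in another, and the mutants' treatment field names the wt construct, so groups were read from the titles. Each group is 1 GEO sample with 3 dishes (n = 3), which were joined at reverse transcription, so a difference between groups and a difference between their pools cannot be told apart. No group without a p53 construct was analysed here, so every change is a mutant compared with WT p53.

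The pathway runs in stages. Acetyl-CoA is turned into mevalonate and then into isoprenoids, which also feed protein prenylation; squalene is then made and folded into lanosterol, the first sterol, and lanosterol is trimmed and rearranged into cholesterol. Its genes are classical targets of the SREBP transcription factors: when sterols are plentiful, INSIG proteins hold the carrier SCAP and its SREBP cargo in the endoplasmic reticulum, and when sterols are scarce SCAP escorts SREBP to the Golgi, where cleavage frees the active factor. SREBP-2, encoded by SREBF2, is best known for cholesterol genes and SREBP-1, encoded by SREBF1, for fatty acid genes.

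Promoter windows of the members are shown first, since the letters that SREBPs and their partner NF-Y read are part of what defines the pathway. RefSeq windows (GRCh38.p14) that span 250 bases before to 50 after an annotated start were held for 23 of the 26 members, as 31 windows. The sterol regulatory element core was searched as TCACNCCAC and the NF-Y box as CCAAT, on both strands. The exact core was found in 1 of the 23 members, SREBF2, against 1.38% of the 11497 tested genes with a window. The 49 bases around it, at chr22:41832952-41833000 on the plus strand, carry the core in capitals with its first base at position -133 from the start:
SREBF2: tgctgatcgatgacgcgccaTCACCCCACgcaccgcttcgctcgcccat
CCAAT was more frequent: 17 of the 23 members (73.9%) held it, against 43.5% of tested genes with a window. A gene was counted for a motif where any of its windows held it. Printed below is a window each of HMGCS1 (chr5:43313363-43313662, minus strand) and DHCR7 (chr11:71448344-71448643, minus strand), whose footprints rose in both mutants. The window of TM7SF2 (chr11:65111622-65111921, plus strand), whose footprints fell in both, is also printed. HMGCS1 and DHCR7 each have another window, chr5:43313132-43313431 and chr11:71448994-71449293, that holds no CCAAT and is not printed. CCAAT, or its reverse complement ATTGG, is in capitals:
HMGCS1: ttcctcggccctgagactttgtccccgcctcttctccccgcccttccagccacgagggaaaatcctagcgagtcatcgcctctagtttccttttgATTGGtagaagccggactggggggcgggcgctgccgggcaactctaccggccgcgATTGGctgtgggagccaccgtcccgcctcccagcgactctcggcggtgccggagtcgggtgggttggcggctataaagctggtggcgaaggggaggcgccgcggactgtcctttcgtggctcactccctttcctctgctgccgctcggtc
DHCR7: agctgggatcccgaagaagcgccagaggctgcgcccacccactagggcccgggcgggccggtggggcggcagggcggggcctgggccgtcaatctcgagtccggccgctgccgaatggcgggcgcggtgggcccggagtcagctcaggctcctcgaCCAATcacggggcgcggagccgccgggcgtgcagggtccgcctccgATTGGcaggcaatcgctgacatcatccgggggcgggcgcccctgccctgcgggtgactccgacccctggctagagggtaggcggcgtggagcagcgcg
TM7SF2: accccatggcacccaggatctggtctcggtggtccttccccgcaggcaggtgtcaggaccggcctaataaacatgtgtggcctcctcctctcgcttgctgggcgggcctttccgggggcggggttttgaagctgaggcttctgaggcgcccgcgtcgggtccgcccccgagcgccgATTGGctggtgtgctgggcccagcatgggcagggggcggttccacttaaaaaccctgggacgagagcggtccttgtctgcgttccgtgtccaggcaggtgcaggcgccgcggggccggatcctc
The windows of SREBF1 (chr17:17836937-17837236, minus strand), the member that rose most in both mutants, and of PMVK (chr1:154936670-154936969, minus strand), which fell, hold neither motif and are printed without capitals:
SREBF1: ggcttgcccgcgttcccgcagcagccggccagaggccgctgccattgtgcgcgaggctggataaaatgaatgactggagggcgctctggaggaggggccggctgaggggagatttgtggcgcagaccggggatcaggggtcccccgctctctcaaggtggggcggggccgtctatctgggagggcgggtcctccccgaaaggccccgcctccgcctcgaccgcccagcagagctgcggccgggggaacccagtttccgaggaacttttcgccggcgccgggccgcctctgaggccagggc
PMVK: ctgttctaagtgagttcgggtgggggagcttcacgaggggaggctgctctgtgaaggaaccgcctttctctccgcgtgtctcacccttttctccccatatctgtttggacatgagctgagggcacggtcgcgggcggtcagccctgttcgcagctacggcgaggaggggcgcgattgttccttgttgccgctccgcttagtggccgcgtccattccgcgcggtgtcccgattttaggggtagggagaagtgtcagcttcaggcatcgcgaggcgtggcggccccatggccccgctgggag
CCAAT was present in 7 of the 10 members with a window that were higher in both mutants and in 7 of the 8 that were called in neither. The GC box GGGCGG was held by 91.3% of members and by 77.2% of tested genes with a window. Allowing 1 changed letter in the sterol core, a search added after these data were seen, gave 39.1% of members and 30.6% of tested genes. A match of letters is a description of the window and not a binding site. No other window was held for SREBF1 or PMVK, so motifs at any other start of these genes were not searched.

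The libraries held 18.7 to 24.6 M counts (M, 1e6 counts), with 23.3 to 24.6 M in R273H and 18.7 to 21.6 M in the other groups. The p53 targets used to check the labels were lower in both mutants: MDM2, which encodes the ligase that degrades p53, had 860.3 ± 49.3 CPM (counts per M counts, scaled for library size and composition; mean ± SD, n = 3) in WT and 76.8 ± 4.20 in G245S and 76.7 ± 2.94 in R273H, and CDKN1A, which encodes the cell cycle inhibitor p21, had 61.1 ± 2.27, 16.1 ± 0.338 and 13.9 ± 0.515. Of the markers, KRT18 (109.6 to 116 CPM as group means), KRT8 (33.8 to 43.4) and VIM (884 to 983) were present, EPCAM, CDH1, PAX2 and LHX1 were below 8 CPM, and KRT19 and PAX8 were near 0, so the epithelial label rests on the keratin genes KRT8 and KRT18. Markers of leukocytes, endothelium and erythroid cells together summed to under 4 CPM as group means. The fibroblast genes were divided. COL1A1 and LUM held 27.5 to 32.5 and 14.5 to 20.2 CPM as group means, while DCN held 0.208 to 0.278 and COL1A2 at most 0.0181. COL1A1 was lower in both mutants and LUM higher in R273H. LHX1 was higher in both mutants (log2 fold changes of 0.51 and 0.64), KRT8 (0.36) and PAX2 (0.35) in R273H and VIM (0.15) in G245S, all called, and the part of these markers in the members' values was not tested.

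Footprints on the pathway were more abundant in both mutants. The 26 members took 0.331 to 0.335% of all counts in the 3 WT dishes, 0.362 to 0.364% in G245S and 0.355 to 0.361% in R273H, and these ranges did not overlap between any groups. Summed over members, WT held 3315 ± 23.8 CPM, G245S 3667 ± 3.81 and R273H 3576 ± 13.7, which is 111% and 108% of WT.

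By edgeR's quasi-likelihood test with Benjamini-Hochberg adjustment over all genes tested, and a call at an adjusted p under 0.05, 16 of the 26 members were called in G245S against WT. Of these 14 were higher and 2 lower, where 24.7% of all genes tested were called, 12.6% higher and 12.1% lower. In R273H against WT 16 members were called, 13 higher and 3 lower, where 28.8% of genes were called, 14.2% higher and 14.6% lower. Genes of the members' count range (mean counts of 193 to 7290) were called more often than all genes, at 35.3% and 39.9%, with 18% and 19.6% higher. The members had a median log2 fold change of 0.12 (G245S) and 0.07 (R273H), against 0.00 over all genes in each contrast. Both contrasts share the 3 WT dishes, so their values are given side by side and not as separate evidence. The members were chosen with earlier results of these data known, so their shares are a description and no test.

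The members called in both mutants were 12 higher (ACAT2, HMGCS1, GGPS1, SQLE, LSS, CYP51A1, LBR, NSDHL, SC5D, DHCR7, INSIG1 and SREBF1) and 2 lower (PMVK and TM7SF2). EBP and FDFT1 were called in G245S and not in R273H, and FDPS and INSIG2 in R273H and not in G245S. The other 8 (MVK, MVD, IDI1, MSMO1, HSD17B7, SREBF2, SCAP and STARD4) were called in neither. The changes were small, apart from TM7SF2: the called increases lay between 0.06 and 0.49 on the log2 scale.

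**Figure D1:**
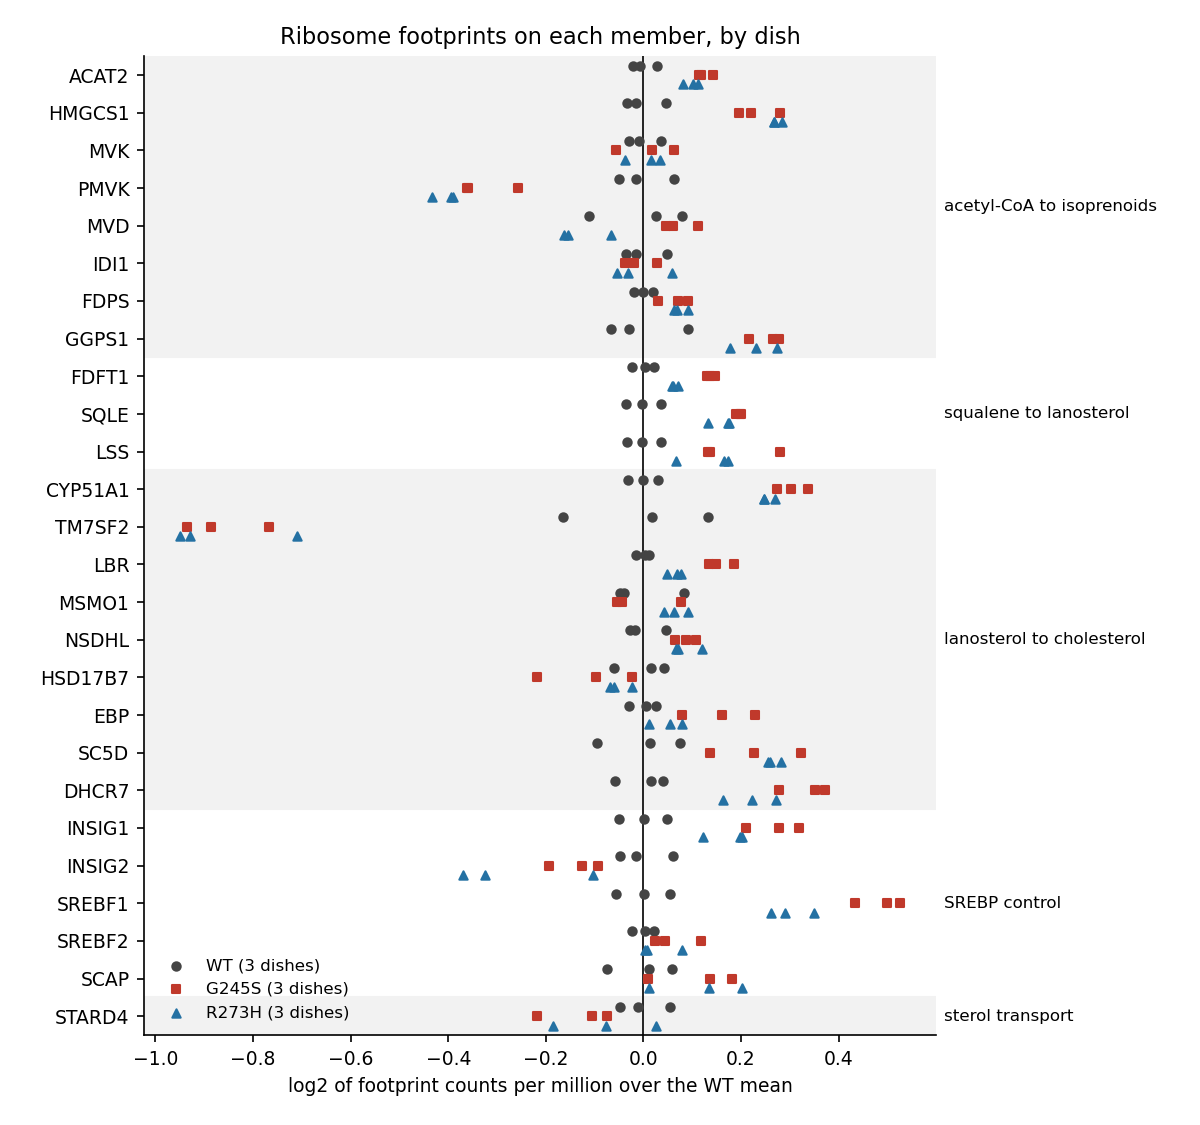
Footprints (CPM) of each member in each dish, as log2 over the WT mean (horizontal axis), by pathway stage (rows); circles are WT, squares G245S and triangles R273H dishes. The mutant dishes lie right of all WT dishes for SREBF1, DHCR7, CYP51A1 and HMGCS1 and left of them for TM7SF2 and PMVK.

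**Figure D2:**
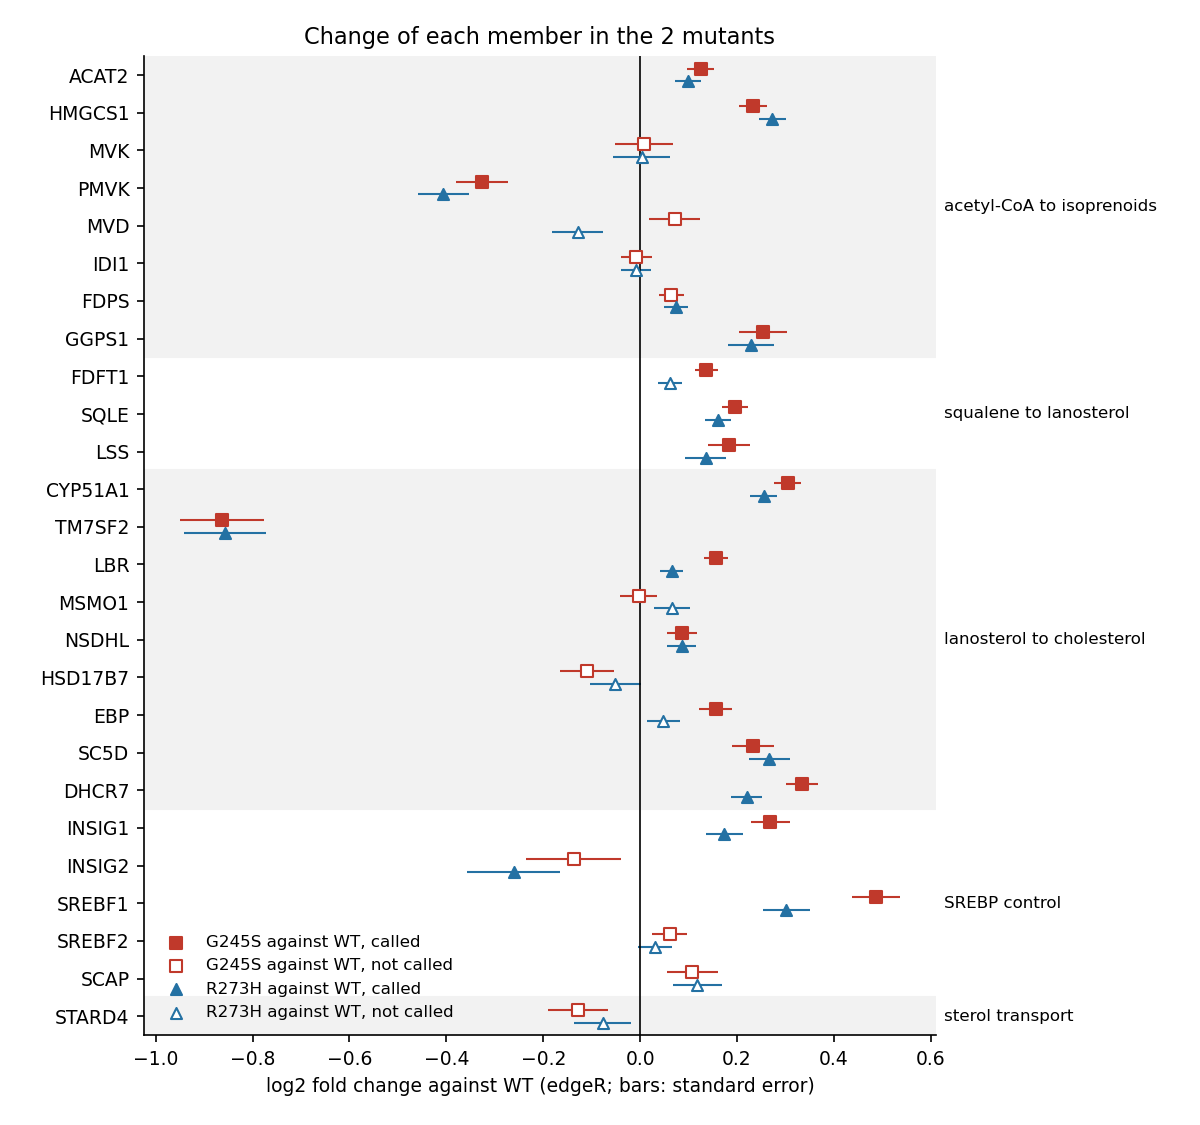
Fitted log2 fold change of each member against WT (horizontal axis; bars are standard errors), squares for G245S and triangles for R273H, filled where the adjusted p was under 0.05. Filled points number 16 for each mutant, 14 of them right of 0 for G245S and 13 for R273H.

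The first stage was divided. HMGCS1, the cytosolic synthase that makes HMG-CoA, and GGPS1, which makes the geranylgeranyl group for protein prenylation, rose in both mutants, while PMVK, the kinase that acts on phosphomevalonate, fell in both. HMGCS1 (ENSG00000112972, chr5:43287470-43313512 in GENCODE on GRCh38) had 248, 245.3 and 259 CPM in the WT dishes, 293, 287 and 305 in G245S, and 302, 302 and 306 in R273H. Every mutant dish was above every WT dish, and HMGCS1 rose on the log2 scale by 0.23 ± 0.028 (SE; adjusted p = 2.7e-07) for G245S and 0.27 ± 0.0276 (adjusted p = 1.0e-08) for R273H.

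GGPS1 had 39.9, 38.9 and 43.4 CPM in WT, 49.0, 47.3 and 49.4 in G245S, and 49.2, 47.8 and 46.1 in R273H. The mutant dishes were again all above the WT dishes, and GGPS1 was higher by 0.25 ± 0.0494 (adjusted p = 2.9e-04) and 0.23 ± 0.0482 (adjusted p = 6.0e-04). GGPS1 overlaps a protein-coding readthrough locus on the same strand (ENSG00000285053, 52.0 CPM) that changed by 0.04 and 0.05. Reads of the 2 could thus be divided between them by the counting. On the other strand GGPS1 overlaps ARID4B, which held 138.5 CPM and changed by -0.01 and 0.01.

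PMVK (ENSG00000163344, chr1:154924740-154936719) had 37.2, 39.2 and 36.3 CPM in WT, 31.4, 29.3 and 29.2 in G245S, and 28.6, 27.8 and 28.6 in R273H. The WT dishes were the 3 highest. It changed by -0.33 ± 0.0533 (adjusted p = 3.3e-05) with G245S and by -0.41 ± 0.0521 (adjusted p = 7.0e-07) with R273H.

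MVK and IDI1 showed no called change, and MVD, which acts directly after PMVK, had -0.13 in R273H (adjusted p = 0.0643) and 0.07 in G245S (adjusted p = 0.357). MVK, which phosphorylates mevalonate just before PMVK acts, had 24.1 ± 0.567 CPM in WT, 24.2 ± 0.999 in G245S and 24.1 ± 0.619 in R273H, and IDI1, the isomerase of the isoprenoid unit, had 213 ± 6.44, 212 ± 5.02 and 212 ± 8.82. Their values were log2 differences of 0.01 and 0.00 for MVK and -0.01 and -0.01 for IDI1. MVK overlaps MMAB on the other strand, which held 59.2 CPM and changed by -0.08 and -0.12. Whether reads of MMAB enter the MVK count was not tested. Pseudogenes of IDI1 held 3.64 CPM and those of FDPS 3.85 CPM, and adding them to their parent genes changed no call.

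ACAT2, which condenses acetyl-CoA, was higher by 0.13 ± 0.0273 (adjusted p = 0.00102) with G245S and by 0.10 ± 0.027 (adjusted p = 0.00655) with R273H. It overlaps TCP1 on the other strand, a gene at 699.8 CPM that changed by 0.29 and 0.24, and whether the counting used strand was not given in the sources used here. FDPS, which makes farnesyl pyrophosphate, had 292 ± 3.77 CPM in WT, 305 ± 6.60 in G245S and 307 ± 3.29 in R273H. It was called in R273H (0.07 ± 0.0253, adjusted p = 0.0272) and had 0.06 ± 0.0256 in G245S (adjusted p = 0.069), and G245S differed from R273H by -0.01 (adjusted p = 0.892). The R273H call was lost without WT dish 1 or without R273H dish 1 (log2 fold changes of 0.06 to 0.10 and adjusted p up to 0.115 over the 18 alternative settings). The dishes of MVD are given with the comparison of the mutants.

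The squalene stage moved in 1 direction. FDFT1 (squalene synthase), SQLE (squalene epoxidase, a rate-limiting step) and LSS (lanosterol synthase) together held 594 ± 7.23 CPM in WT, 665 ± 5.79 in G245S and 639 ± 7.48 in R273H. All 3 were called higher in G245S and SQLE and LSS in R273H. SQLE had 210.4 ± 5.22, 241.0 ± 0.913 and 235 ± 3.87 CPM, a rise of 0.20 ± 0.0272 (adjusted p = 2.9e-06) and 0.16 ± 0.0269 (adjusted p = 3.8e-05), with no overlap between the dishes of any groups.

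LSS had 69.1 ± 1.71, 78.5 ± 4.62 and 75.8 ± 3.09 CPM and changed by 0.18 ± 0.0435 (adjusted p = 0.00229) and 0.14 ± 0.0426 (adjusted p = 0.0171). Its R273H call was lost without WT dish 2, WT dish 3, R273H dish 1 or R273H dish 2 (adjusted p up to 0.0875 over the alternatives, log2 fold change 0.12 to 0.17). FDFT1 had 315 ± 4.95, 346 ± 2.01 and 328 ± 1.46 CPM. It was higher by 0.14 ± 0.0243 in G245S (adjusted p = 9.2e-05) and by 0.06 ± 0.0241 in R273H, where the adjusted p was 0.052 in the reported fit and between 0.0025 and 0.198 over the alternatives, under the threshold in 9 of 18 of them (without WT dish 3 or G245S dish 3 among these).

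The sterol stage held the member that fell most. TM7SF2 (ENSG00000149809, chr11:65111845-65116384), a sterol reductase of the endoplasmic reticulum, had 21.7, 23.5 and 19.1 CPM in WT, 12.6, 11.2 and 11.6 in G245S, and 13.1, 11.2 and 11.1 in R273H. The lowest WT dish was above the highest mutant dish. On the log2 scale it changed by -0.86 ± 0.0868 (adjusted p = 1.2e-08) for G245S and -0.86 ± 0.0838 (adjusted p = 6.1e-09) for R273H, or 0.55 times the WT level in each.

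LBR, the lamin B receptor of the inner nuclear membrane, catalyzes the same reduction as TM7SF2. It had 327 ± 3.05 CPM in WT, 365 ± 6.50 in G245S and 342 ± 3.32 in R273H, higher by 0.16 ± 0.0245 (adjusted p = 1.8e-05) and 0.06 ± 0.0243 (adjusted p = 0.045). Per coding length the ratio of TM7SF2 to LBR was 0.0962 ± 0.0097 in WT, 0.0475 ± 0.00341 in G245S and 0.0508 ± 0.00531 in R273H, so most footprints on this step lay on LBR in every group. The R273H increase of LBR was 0.03 once a trend of fold change with coding length and GC content was removed, and not called. The call was also lost without the filter on low counts, and on leaving out any R273H dish, WT dish 1, WT dish 2 or G245S dish 2 (0.03 to 0.08 over all alternatives, adjusted p up to 0.34). TM7SF2 overlaps VPS51 on the same strand, which held 64.6 CPM and moved by 0.17 and 0.05.

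Among the other sterol enzymes CYP51A1, SC5D and DHCR7 rose most. CYP51A1 (ENSG00000001630, chr7:92084987-92134803), which removes a methyl group from lanosterol, had 189, 193 and 197 CPM in WT, 239, 244 and 234 in G245S, and 233, 229.6 and 229.5 in R273H. Its dishes did not overlap between any groups, and the log2 fold changes were 0.31 ± 0.0277 (adjusted p = 1.3e-09) and 0.25 ± 0.0273 (adjusted p = 3.2e-08). Of the same-strand loci without a symbol that overlap it, 1 held 5.62 CPM and moved by 0.34 and 0.67. Another held 17.4 CPM and moved by 0.64 and 0.57. AKAP9, on the other strand, held 26.2 CPM and moved by -0.35 and -0.28. Its pseudogenes held 8.71 CPM together, of which CYP51A1P1 moved by 0.19 and 0.26 and CYP51A1P2 by 1.07 and 0.85. Whether reads of the overlapping loci enter the CYP51A1 count was not tested.

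DHCR7 (ENSG00000172893, chr11:71428193-71452868), a reductase whose product in a branch of the route is cholesterol, had 206.5, 203 and 193 CPM in WT, 260.0, 256 and 244 in G245S, and 242.5, 234 and 225 in R273H. WT was lowest and G245S highest without overlap, and dish 3 was the lowest of its group in each. The log2 fold changes were 0.33 ± 0.0325 (adjusted p = 1.0e-08) and 0.22 ± 0.0323 (adjusted p = 7.8e-06). SC5D, the sterol desaturase before DHCR7, had 118, 127 and 133 CPM in WT, 139, 147.5 and 158 in G245S, and 151, 151 and 153 in R273H. All mutant dishes exceeded the WT dishes, here with dish 3 highest in each group, and the log2 fold changes were 0.23 ± 0.0437 (adjusted p = 5.9e-04) and 0.27 ± 0.0428 (adjusted p = 1.1e-04).

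The remaining enzymes changed little. EBP, the sterol isomerase, had 149.5 ± 2.90 CPM in WT, 167 ± 8.63 in G245S and 155 ± 3.68 in R273H. It was called in G245S (0.16 ± 0.0339, adjusted p = 0.00101) and not in R273H (0.05 ± 0.0335, adjusted p = 0.306), where it reached 0.12 and a call after the length and GC trend was removed. A same-strand locus without a symbol that overlaps EBP held 7.65 CPM and moved by 0.527 and 0.215. NSDHL, which takes part in removing the methyl groups next to the hydroxyl of lanosterol, was higher by 0.09 ± 0.0309 (adjusted p = 0.04) and 0.09 ± 0.0303 (adjusted p = 0.0338).

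The NSDHL calls were also not secure. The G245S call was lost by DESeq2's Wald test, without the filter on low counts and with only the 6 libraries compared. It was also lost without WT dish 1, WT dish 3, G245S dish 2, G245S dish 3 or R273H dish 1 (log2 fold change 0.07 to 0.11, adjusted p up to 0.147). The R273H call was lost by DESeq2 and without WT dish 1, WT dish 3, R273H dish 1 or R273H dish 2 (0.07 to 0.11, adjusted p up to 0.163). MSMO1 and HSD17B7, which act beside NSDHL in the same removal, were not called: MSMO1 had 132 ± 6.88, 131 ± 6.75 and 138 ± 2.31 CPM, and HSD17B7 35.6 ± 1.29, 32.9 ± 2.25 and 34.4 ± 0.577. Pseudogenes of HSD17B7 held 3.39 CPM.

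Among the control genes SREBF1 and INSIG1 rose in both mutants, while their paralogs SREBF2 and INSIG2 were not called higher in either. The difference between paralogs was not tested. SREBF1 (ENSG00000072310, chr17:17810399-17837002) had 33.2, 34.5 and 35.8 CPM in WT, 49.6, 46.6 and 48.7 in G245S, and 43.9, 41.3 and 42.2 in R273H. The 3 groups did not overlap, with G245S highest. The log2 fold change was 0.49 ± 0.0495 (adjusted p = 1.3e-08, 1.40 times WT) in G245S and 0.30 ± 0.0491 (adjusted p = 2.6e-05, 1.23 times WT) in R273H. RAI1, which overlaps SREBF1 on the other strand, held 40.1 CPM and moved by 0.31 and 0.30.

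SREBF2 had 96.1, 94.3 and 97.4 CPM in WT, 104, 97.5 and 98.9 in G245S, and 96.5, 101 and 96.1 in R273H. The G245S dishes lay above the WT dishes and the R273H dishes overlapped them. Neither mutant was called, at 0.06 ± 0.0359 (adjusted p = 0.23) and 0.03 ± 0.0352 (adjusted p = 0.561). Per coding length, SREBF1 held 0.358 ± 0.0126 of the SREBF2 level in WT, 0.48 ± 0.0088 in G245S and 0.432 ± 0.0239 in R273H.

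INSIG1, itself an SREBP target, had 77.2, 72.1 and 74.7 CPM in WT, 90.5, 93.1 and 86.4 in G245S, and 85.6, 85.8 and 81.3 in R273H. It was higher without overlap in both, by 0.27 ± 0.0394 (adjusted p = 7.2e-06) and 0.17 ± 0.0388 (adjusted p = 0.00107). INSIG2, the form that is not driven by SREBP in the same way, had the fewest footprints of the members: 10.5, 9.93 and 9.71 CPM in WT, 8.78, 9.41 and 9.20 in G245S, and 9.35, 7.76 and 8.02 in R273H.

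The mutant dishes of INSIG2 lay below its WT dishes, with a log2 fold change of -0.14 ± 0.0983 in G245S (adjusted p = 0.34) and a called -0.26 ± 0.0965 in R273H (adjusted p = 0.0424). The call was not secure: it was lost under 10 of 18 alternatives, among them DESeq2, no filter and leaving out any WT dish, R273H dish 2, R273H dish 3 or G245S dish 2 (-0.35 to -0.21, adjusted p up to 0.172). The ratio of INSIG1 to INSIG2 per coding length was 6.04 ± 0.182 in WT, 8.01 ± 0.374 in G245S and 8.21 ± 0.772 in R273H, and the mutant dishes lay above the WT dishes.

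SCAP had 66.3, 64.1 and 60.4 CPM in WT, 72.1, 69.9 and 64.0 in G245S, and 69.8, 73.2 and 64.1 in R273H. These overlap, and the log2 differences of 0.11 ± 0.0519 (adjusted p = 0.137) and 0.12 ± 0.0506 (adjusted p = 0.085) were not called. STARD4, which carries sterol between membranes, had 30.6 ± 1.10, 27.9 ± 1.43 and 29.0 ± 2.11 CPM and was not called in either mutant.

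**Figure D3:**
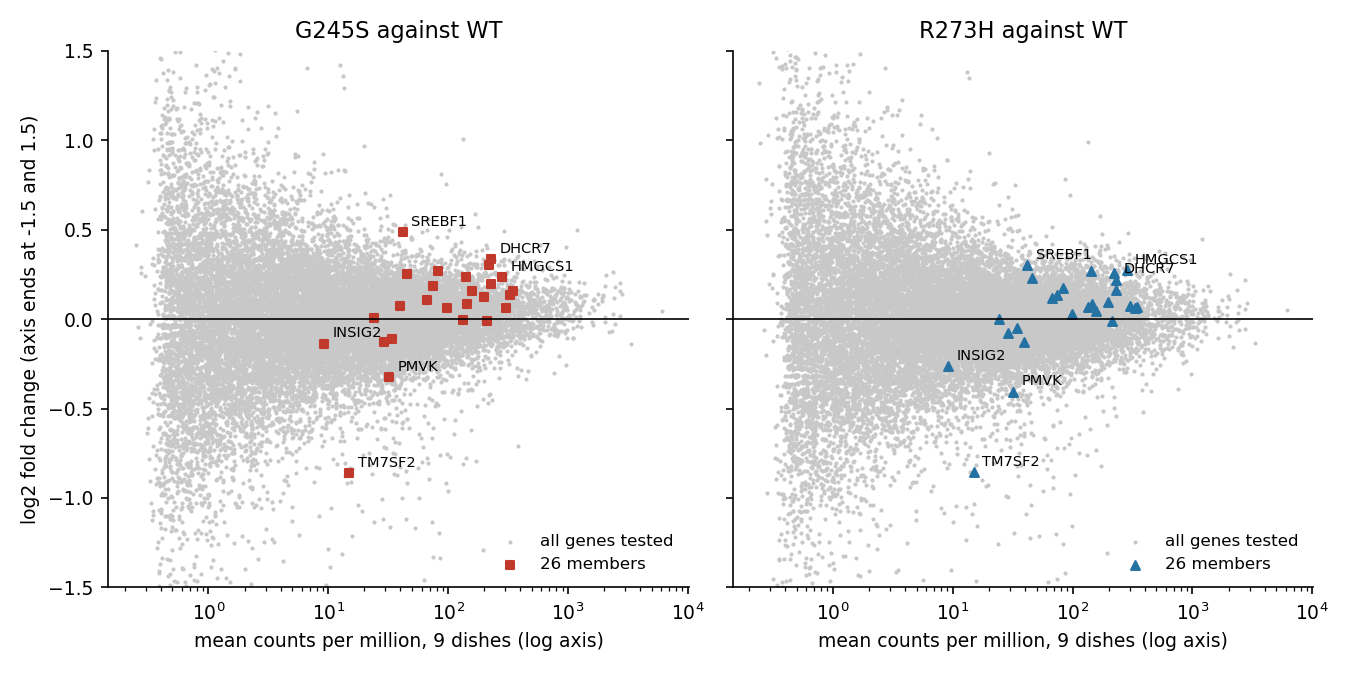
Log2 fold change against WT (vertical axis) by mean CPM over the 9 dishes (log horizontal axis) for all 19820 genes tested (grey) and the 26 members (colored), G245S left and R273H right; 148 and 144 genes lie beyond the axis. SREBF1 is the highest member at 0.49 and 0.30, and TM7SF2 the lowest at -0.86 in each.

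The mutants were compared directly to see which changes differed between them. In G245S against R273H 4 members were called, all 4 higher in G245S and none lower. Over all genes tested 2.59% were called, 1.86% higher and 0.732% lower. In the members' count range 3.35% were called, 2.46% higher and 0.895% lower. The median log2 difference of the 26 members was 0.03. SREBF1 was higher in G245S by 0.19 ± 0.0464 (adjusted p = 0.0251), LBR by 0.09 ± 0.0241 (adjusted p = 0.0337) and DHCR7 by 0.11 ± 0.0316 (adjusted p = 0.0496).

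MVD, the decarboxylase that forms the isoprenoid unit, was called only in this comparison. It had 42.2, 40.7 and 37.0 CPM in WT, 43.2, 41.6 and 41.2 in G245S, and 38.1, 35.9 and 35.7 in R273H. The mutants did not overlap each other but both overlapped WT, and G245S was higher than R273H by 0.20 ± 0.0515 (adjusted p = 0.0308). Against WT it had 0.07 ± 0.0525 with G245S (adjusted p = 0.357) and -0.13 ± 0.0521 with R273H (adjusted p = 0.0643).

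These 4 calls rest on few dishes: none was kept without G245S dish 1, R273H dish 2 or R273H dish 3 by edgeR's quasi-likelihood test, where 7, 7 and 6 members had an unadjusted p under 0.05, and 1 was kept without G245S dish 2. DESeq2 on all dishes called 4 members with 7 under an unadjusted p of 0.05. The log2 differences stayed above 0, at 0.13 to 0.21 for SREBF1, 0.08 to 0.13 for LBR, 0.08 to 0.14 for DHCR7 and 0.14 to 0.23 for MVD over the alternatives.

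Levels can be compared between genes per coding length, as CPM per kilobase of the canonical coding sequence. In WT the order ran from FDFT1 (251 ± 3.95) and IDI1 (250.3 ± 7.55), which did not differ beyond their spread, through FDPS (232 ± 3.00) and EBP (217 ± 4.20) to LBR (177 ± 1.65). A middle group followed with HMGCS1, ACAT2, MSMO1, DHCR7, SC5D, CYP51A1, NSDHL and SQLE between 161 and 122. INSIG1 (89.8 ± 3.03) and PMVK (65.2 ± 2.58) stood apart from their neighbours.

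At the low end were MVK (20.3 ± 0.477), TM7SF2 (17.1 ± 1.75), SCAP (16.6 ± 0.771), INSIG2 (14.9 ± 0.583) and SREBF1 (10.02 ± 0.382), with TM7SF2 overlapping SCAP and INSIG2. SREBF1 was thus the lowest of the members in WT, and in the mutants, at 14.0 ± 0.456 and 12.3 ± 0.382, it stood above TM7SF2, which had 9.39 ± 0.57 and 9.41 ± 0.891. The median coding length of the members was 1195 nucleotides at 51.0% GC, against 1395 and 52.3% for the 13619 tested genes with a coding length.

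**Figure D4:**
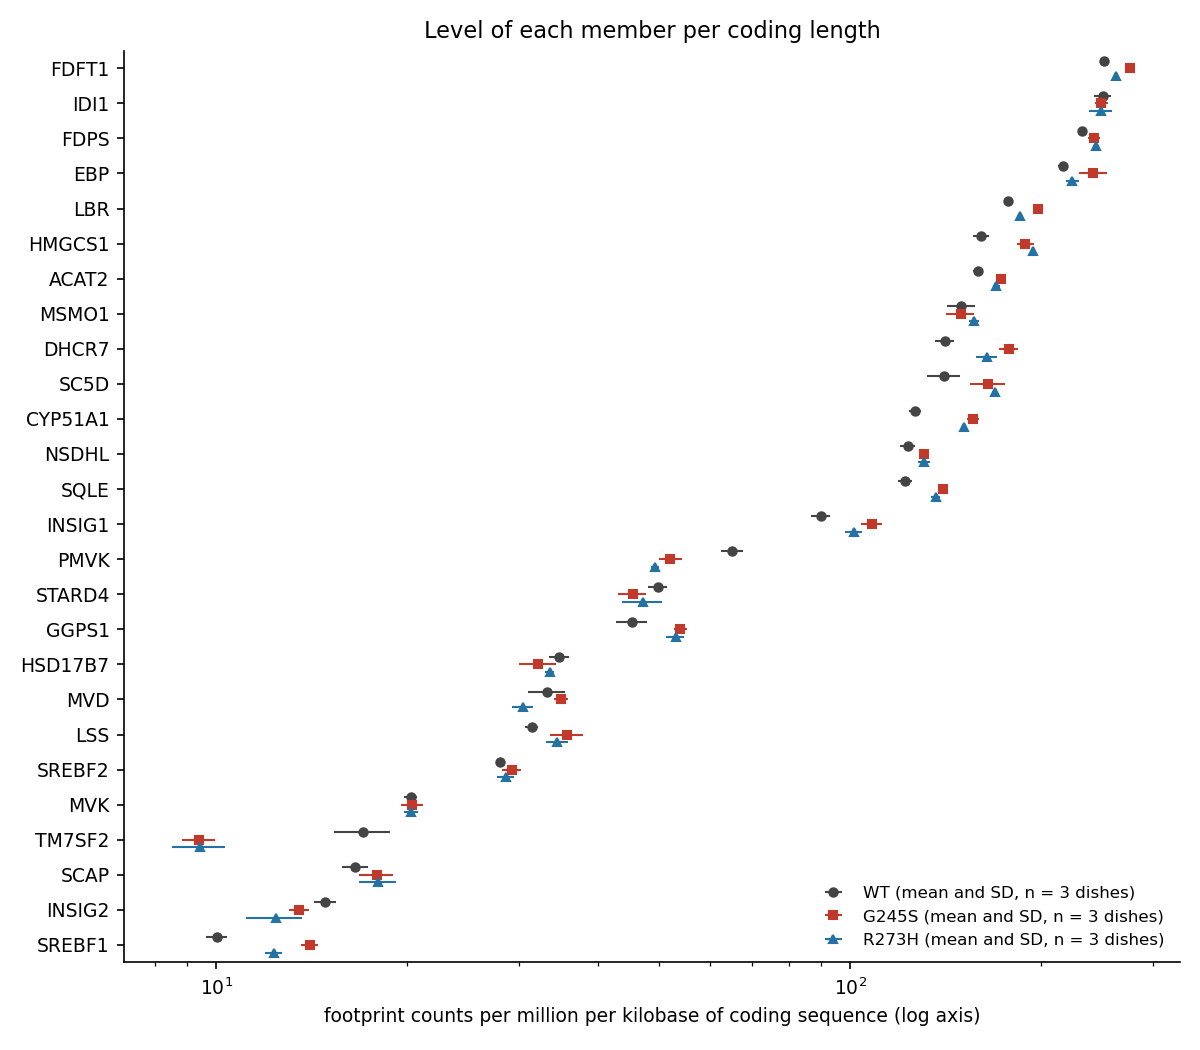
Footprint CPM per kilobase of coding sequence (log axis) for each member, sorted by the WT level; points are means and bars SD of 3 dishes. SREBF1 is lowest in WT at 10.02, and TM7SF2 drops from 17.1 to 9.39 and 9.41.

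Genes next to the pathway were read from 4 lists, also chosen with earlier results of these data known and not tested as sets. Fatty acid synthesis and desaturation, the branch that SREBP-1 governs, had 10 of 13 tested genes called in each mutant, 9 higher and 1 lower. Its medians were 0.22 and 0.21. Over all genes tested 24.7% and 28.8% were called, 12.6% and 14.2% higher. In the members' count range 35.3% and 39.9% were called, 18% and 19.6% higher. FADS2, a fatty acid desaturase, rose by 0.41 ± 0.0427 and 0.30 ± 0.0421, FASN, the fatty acid synthase, by 0.40 ± 0.0262 and 0.33 ± 0.0261, and ACACA, which makes malonyl-CoA, by 0.38 ± 0.0278 and 0.38 ± 0.0273. The 1 lower gene, named after its value was seen, was MID1IP1, an activator of ACACA, at -0.34 in each. The list summed to 3211 ± 18.8 CPM in WT, 3796 ± 78.5 in G245S and 3649 ± 7.25 in R273H.

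SREBP proteolysis and turnover genes were called in 4 of 11 (3 higher) and 6 of 11 (5 higher), with medians of 0.07 and 0.10. Among genes of the members' count range 35.3% and 39.9% were called, close to the list's G245S share and below its R273H share. The higher genes were 27.3% and 45.5% of the list, against 18% and 19.6% in that range. TMED2, a cargo receptor of the early secretory pathway, was higher by 0.26 ± 0.0365 and 0.13 ± 0.0361, and SEC23A, a subunit of the vesicle coat that exports SCAP, by 0.12 ± 0.0303 and 0.14 ± 0.0298, while its partner SEC24C was lower at -0.09 ± 0.0323 and -0.10 ± 0.0317. Both proteases that cleave SREBP, MBTPS1 and MBTPS2, were not called in either mutant.

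Genes that use isoprenoids were called in 3 of 13 (2 higher) and 6 of 13 (5 higher), with medians of 0.09 and 0.07. Over all genes 24.7% and 28.8% were called, above the list's G245S share and below its R273H share. In the members' count range 35.3% and 39.9% were called. RABGGTA, a subunit of the enzyme that prenylates Rab proteins, fell in both, at -0.46 ± 0.0616 and -0.51 ± 0.06. ZMPSTE24, the protease that trims prelamin A, was higher by 0.21 ± 0.0307 and 0.20 ± 0.0302 and PDSS1, of the coenzyme Q side chain, by 0.15 ± 0.0572 and 0.29 ± 0.0548.

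Sterol transport, storage and efflux was the list with a median below 0, at -0.08 and -0.05. Of its tested genes 4 of 15 (2 higher) and 5 of 15 (2 higher) were called. These shares were near the 24.7% and 28.8% of all genes and below the 35.3% and 39.9% in the members' count range. NPC2, which hands cholesterol out of the lysosome, was lower at -0.27 ± 0.0343 and -0.28 ± 0.0335. TMEM97, a sterol-responsive membrane protein, was higher by 0.22 ± 0.0424 and 0.23 ± 0.0413 and GRAMD1A, which moves sterol from the plasma membrane, by 0.20 ± 0.0619 and 0.17 ± 0.0604. The genes named from these lists with fold changes had adjusted p values of 0.0485 or less in edgeR's test.

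**Figure D5:**
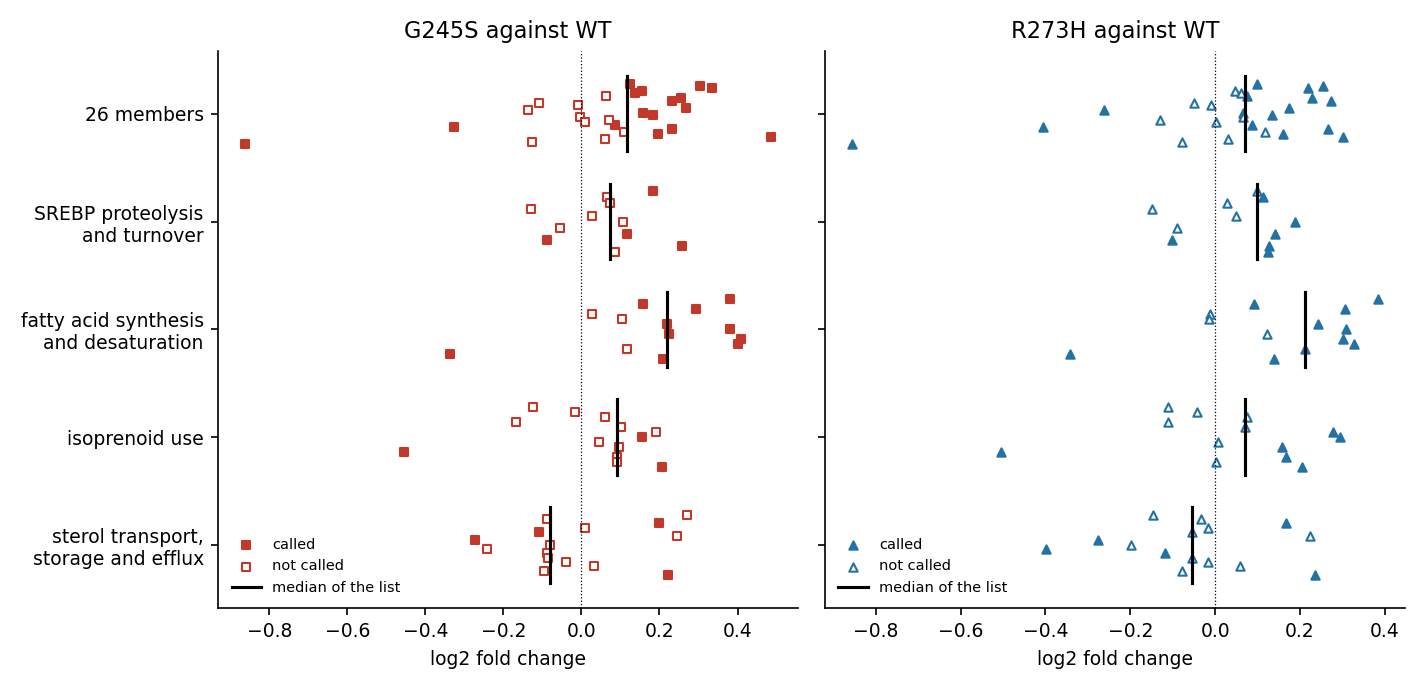
Log2 fold change against WT (horizontal axis) of the members and of 4 related gene lists (rows), G245S left and R273H right; each point is a gene, filled where called, and the bar is the list's median. The fatty acid list has medians of 0.22 and 0.21 and the transport list -0.08 and -0.05.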

How the data were processed

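Ribosome-protected fragments were counted in 9 dishes, 3 for each of 3 groups. Per the study's methods and the labels, the authors trimmed reads with Trim Galore and Cutadapt, extracted molecular identifiers with UMI-tools where applicable, removed ribosomal RNA with SortMeRNA and aligned to GRCh38 with STAR; whether counting used strand or collapsed identifiers is not given in the sources used here. The deposited values are estimated counts per gene, 61.5 to 63.7% of the nonzero ones not whole, and were rounded to whole numbers.

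Counts were tested in R 4.3.3 with edgeR 4.0.16 (filterByExpr, TMM, robust quasi-likelihood fit with group as the only term, all 9 dishes, 6 residual degrees of freedom), and adjusted by Benjamini-Hochberg over 19820 genes. The biological coefficient of variation was 2.58%. Dishes were read as replicates because the study's methods call them independent; they share a pool, so p-values measure only the spread between dishes. No 2 dishes of a group agreed within sampling noise (chi-square per degree of freedom 1.48 to 2.62), so none was treated as a repeat. Positions and coding lengths are from GENCODE on GRCh38, matched by gene ID, and sequences from RefSeq.

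The study used a Wald test. The alternatives were DESeq2 1.42.0, other normalizations, no filter, only the 6 libraries compared, a coding length and GC offset (mgcv 1.9.3), a replicate block, added pseudogene counts and leaving out each dish. Scripts were tested on simulated data. Members and lists were chosen with earlier results of these data known. Full statistics are given for members called in a contrast with a log2 fold change of at least 0.2 in size and for the control genes, and from each related list for up to 3 genes with the largest change among those called in both mutants.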

Additional observations from a re-analysis of the deposited data

Results flagged for a closer look

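Members whose change differed between the mutants were singled out, by the test of G245S against R273H itself (edgeR, Benjamini-Hochberg over all genes). SREBF1 was 0.185 higher in G245S on the log2 scale, with all 3 G245S dishes above all 3 R273H dishes. MVD was higher by 0.2, LBR by 0.092 and DHCR7 by 0.114, also without overlap. All 4 calls were lost without G245S dish 1, R273H dish 2 or R273H dish 3, where 0 members were called by edgeR and 7, 7 and 6 had an unadjusted p under 0.05. SREBF1 and MVD were also not called once the coding length and GC trend was removed, and LBR and DHCR7 not with upper-quartile scaling. DHCR7 was also not called with relative log expression scaling, and LBR not without the filter on low counts. R273H libraries were the deepest, at 23.3 to 24.6 M counts, and the part of depth in these differences was not tested.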

How the results depend on the processing

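Over the 18 alternatives, 15 of the 16 calls in G245S against WT held in each (all but NSDHL), as did 11 of the 16 in R273H against WT (not FDPS, INSIG2, LBR, LSS or NSDHL) and 0 of the 4 in G245S against R273H; no called member changed sign. The number of members called in G245S against R273H, 4, was 2 with upper-quartile scaling, 7 with the replicate block and the coding length and GC offset together, and 0 to 4 on leaving out a dish; the other counts stayed within 1.5 times the reported one, at 15 to 18 in G245S and 12 to 20 in R273H against WT. The median in R273H against WT, 0.07, was 0.1 with the offset, with or without the block. On leaving out a dish the medians ran from 0.1 to 0.132 in G245S against WT, 0.062 to 0.079 in R273H against WT and 0.022 to 0.046 in G245S against R273H. The cause of these shifts was not tested.

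Dish numbers were not taken to pair the dishes: same-numbered dishes of different groups correlated at 0.042 to 0.229 in their deviations from the group means, over 0.1 in 4 of 9 pairs, against -0.184 to 0.058 in the 18 pairs of different number, and R273H dish 2 correlated less with WT dish 2 than with WT dish 1. With the replicate block 18 members were called in G245S against WT, 20 in R273H against WT and 6 in G245S against R273H. Over all genes, calls in G245S against R273H went from 513 to 1262 with the block and to between 162 and 712 on leaving out a dish. Members not called in the reported fit passed in some alternatives: FDPS and SCAP in G245S, EBP, FDFT1, MSMO1, MVD and SCAP in R273H, and CYP51A1, EBP, FDFT1 and SQLE in G245S against R273H. INSIG2 had the lowest counts of the members (mean 193).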
